A study of Mus musculus with 12 samples.

Results

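The RNAs described here were low in crushed mouse sciatic nerve at day 3 and again near their day 0 level at day 14. They were chosen by a rule on the authors' deposited log2 values, each day taken as the mean of its 3 arrays. Day 3 had to lie at least 3 log2 units (8-fold) below day 0, and day 14 within 1 log2 unit (2-fold) of day 0. On all 3 day 0 arrays the scanner software also had to call the probe well above background. Of 90752 probes of 60 bases, 192 met the rule. Probes that share 25 or more bases on one strand were counted once, by the brightest of them, which left 185 RNAs.

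The arrays carried RNA of the distal 0.5 cm of the right sciatic nerve from C57Bl6 mice about 2 months old, at day 0, 3, 7 and 14. Under chloral hydrate, the nerve of every group had been crushed for 30 s at the upper thigh and marked with a ligature at the crush, with the outer sheath left whole. Day 0 is thus the same operation harvested at time 0, and no uncrushed or sham nerve was analysed here. Each day had 3 arrays and each array a pool of 6 mice, so 18 mice stood behind a day and 72 behind the 12 arrays, and the spread given below is between pools. The files pair no probe with a gene, so RNAs are given by probe ID and sequence, and whether they are coding was not analysed here. For the same reason the tissue was not checked against marker genes.

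When a peripheral nerve is crushed, the axons beyond the crush break down. Their Schwann cells give up the myelinating state and its genes, divide and help macrophages clear the debris. After a crush, unlike a gap, axons regrow through the old sheaths and are wrapped again, and many genes of the mature nerve come back. In a whole-nerve extract, fewer cells of a type and less RNA per cell cannot be told apart.

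The sequences of 8 RNAs are shown first, since each of these RNAs is described singly below. These 8 had the deepest loss at day 3 or the largest fitted changes among those called at day 7. The sequences are the probes as deposited, 5′ to 3′, with the hexamer AATAAA in capitals.
MOUSELNCRNA_37390: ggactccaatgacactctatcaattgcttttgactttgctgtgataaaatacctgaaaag
MOUSELNCRNA_66483: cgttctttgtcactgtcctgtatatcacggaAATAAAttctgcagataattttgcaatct
MOUSELNCRNA_42076: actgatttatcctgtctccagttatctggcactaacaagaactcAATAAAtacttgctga
MOUSELNCRNA_83343: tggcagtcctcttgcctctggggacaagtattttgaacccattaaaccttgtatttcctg
MOUSELNCRNA_81979: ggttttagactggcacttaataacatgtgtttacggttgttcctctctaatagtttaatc
MOUSELNCRNA_26857: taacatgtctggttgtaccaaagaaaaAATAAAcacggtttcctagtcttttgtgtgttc
MOUSELNCRNA_29402: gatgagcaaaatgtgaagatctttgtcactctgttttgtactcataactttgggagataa
MOUSELNCRNA_39781: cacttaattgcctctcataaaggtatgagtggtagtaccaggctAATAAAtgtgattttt

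AATAAA is the common signal in animal transcripts for cleavage and addition of the poly(A) tail. It stood in 39 of the 185 probes (21.1%), against 16.0% of the 62803 probes tested, and its reverse complement TTTATT in 9 (4.86%), against 4.19%. In 31 of the 39 it began in the last 30 bases (79.5%), against 83.1% of the tested probes that hold it. The GC content of the members had a median of 38.3% and ran from 35% to 55%, against a median of 41.7% and a range of 21.7% to 86.7% for the tested probes.

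The values below are log2 signals, each array scaled to a common 75th percentile. Between 64.2% and 79.5% of an array's spots were well above background and none was saturated. The arrays lay on 3 slides. Slide 1 held day 0 pools 1 and 2 and day 3 pools 1 and 2, slide 2 held day 0 pool 3, day 3 pool 3 and day 7 pools 2 and 3, and slide 3 held day 7 pool 1 and all 3 pools of day 14. Limma was fitted to all 62803 probes that were well above background on the 3 arrays of at least 1 day, and calls were made where the p, adjusted over all of them by Benjamini and Hochberg, was below 0.05. All 185 members passed this filter, since the rule asks for it at day 0. For 16 members the pools of one day differed strongly, as described after the comparisons.

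The loss and the return chose the members, so they are described without a test. At day 0 the members spanned a wide range, from 4.99 to 17.8 with a median of 8.36, close to the 8.17 of all tested probes. In the deposited values, day 3 minus day 0 was -3.0006 for the member nearest the limit, -2.998 for the nearest probe outside it and -7.54 for the deepest member. In the scanner values, used from here on, the median over members at day 3 was -3.53 relative to day 0, and the pools of day 3 gave medians of -3.55, -3.37 and -3.74. Only 21 of the 185 fell short of an 8-fold loss on that scale.

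Low did not mean absent. At day 3, 82 members were still well above background on all 3 arrays, 25 on 2, 28 on 1 and 50 on none. For those 50 the loss has only a lower bound, which takes, on each array, the higher of the probe's signal and the lowest signal called well above background. The bounds ran from at least 2.03-fold to at least 14.3-fold lower than day 0, and 9 of them were above 8-fold.

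Most members were near, but below, day 0 at day 14. At day 14 the median over members was -0.69 relative to day 0, with pools at -0.59, -0.63 and -0.82, while the median of all tested probes was -0.13. All day 14 pools lay on slide 3 and all day 0 pools on slides 1 and 2. Day and slide thus cannot be told apart in this difference, which the rule also used. Of the 185, 169 lay below day 0, and 33 were more than 2-fold below it on this scale. In the deposited values, which chose them, 162 lay below day 0 with a median of -0.56. Their day 14 values ran from -0.999 to 0.86, and the nearest probes outside were at -1.006 and 1.07. Of the 782 probes that met the other conditions, 192 were thus members, 575 were still more than 2-fold low at day 14 and 15 were more than 2-fold above day 0.

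**Figure D1:**
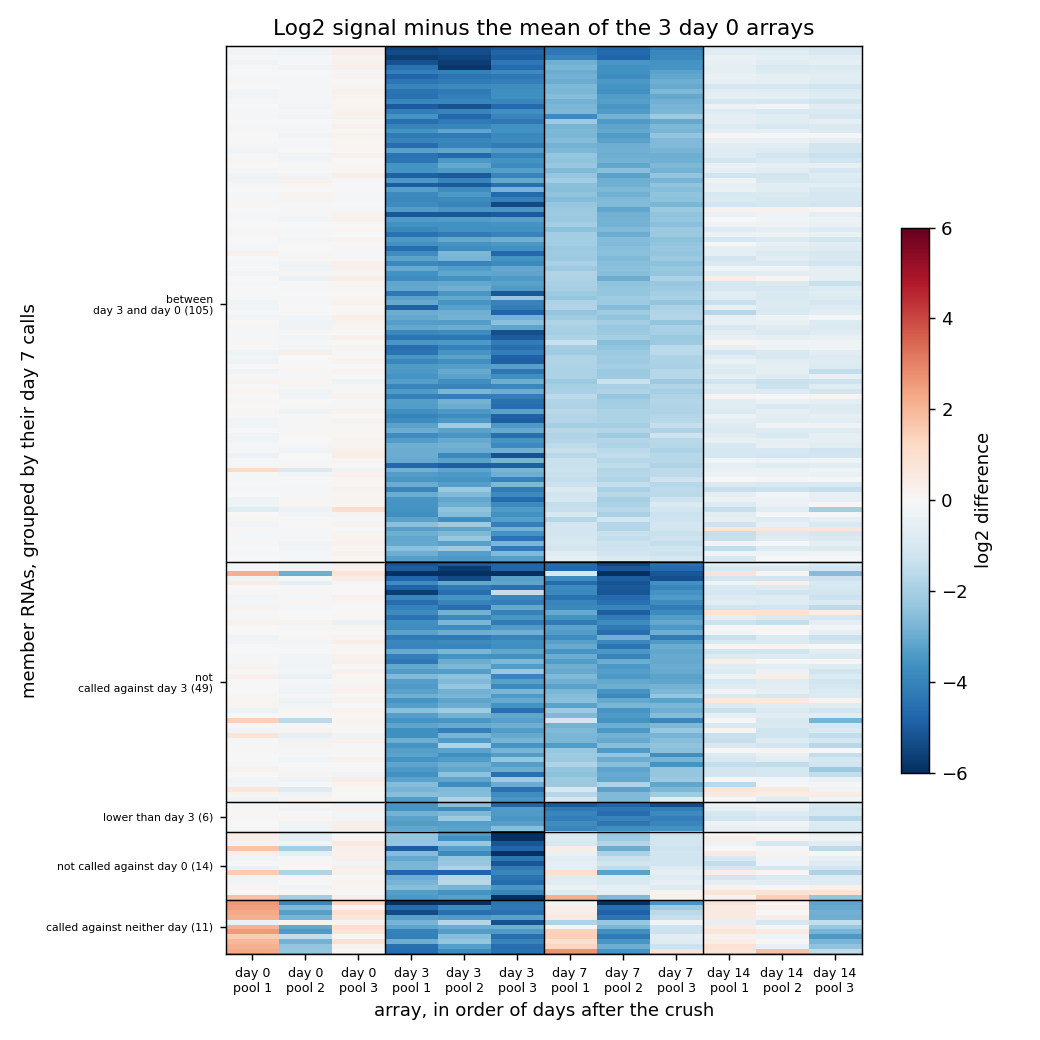
Log2 signal of each of the 185 RNAs (rows) on each of the 12 arrays (columns, in order of days after the crush) minus its mean over the 3 day 0 arrays, with blue below and red above day 0. Differences beyond 6 log2 units take the end colour, and rows are grouped by the calls at day 7. The day 3 columns are the darkest blue in most rows, the day 7 columns paler and the day 14 columns palest.

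The 2 RNAs with the deepest loss show the pattern, but with pools far more spread than is usual here. The SD among the day 0 pools had a median of 0.19 over members. MOUSELNCRNA_37390 had 13.21, 8.14 and 11.79 at day 0, 3.74, 2.96 and 4.42 at day 3, 10.0018, 2.81 and 5.94 at day 7, and 11.83, 11.21 and 8.46 at day 14. All day 3 pools lay below all day 0 and day 14 pools, but the day 7 pools reached from the day 3 level into the range of day 0. MOUSELNCRNA_66483 had 16.26, 9.82 and 14.92 at day 0, 5.89, 5.82 and 9.27 at day 3, 13.39, 7.69 and 10.19 at day 7, and 14.43, 13.80 and 10.51 at day 14. Here too day 3 lay below day 0 and day 14, while day 7 overlapped every other day. The mean loss at day 3 was 162-fold for MOUSELNCRNA_37390 and 102-fold for MOUSELNCRNA_66483, and the SD among the day 0 pools was 2.62 for MOUSELNCRNA_37390 and 3.40 for MOUSELNCRNA_66483. Of the 3 day 3 arrays, only 1 was well above background for MOUSELNCRNA_37390.

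Day 7 was compared with day 0, day 3 and day 14 to place the return in time. The rule did not use the day 7 arrays, but each comparison shares its other day with the rule, so the direction of the members' medians is partly set by their choice. The counts are read against all tested probes.

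At day 7 most of the RNAs were still low. Against day 0, 160 of the 185 members were lower (86.5%), where 24% of all tested probes were, and 159 were lower by 2-fold or more, where 9.37% were. By the same adjusted threshold none was higher, where 20.4% of all tested probes were, and none was higher at an unadjusted p below 0.05. The median over members was -2.39, a 5.25-fold lower level, with quartiles of -2.99 and -1.72, against -0.11 for all tested probes. In 167 members all 3 day 7 pools lay below all 3 day 0 pools, against 28.1% of all tested probes. Within slide 2, with 2 pools of day 7 and a single one of day 0, the median was -2.66. With normexp background correction the median was -1.28 and 151 members were lower.

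The 2 largest fitted falls against day 0 among the calls were those of MOUSELNCRNA_42076, which had only a bound at day 7, and MOUSELNCRNA_83343. MOUSELNCRNA_83343 had the largest called fall among members that each of the 6 arrays had well above background. MOUSELNCRNA_83343 is a bright RNA, with 15.64, 15.48 and 16.11 at day 0, 10.54, 10.74 and 10.93 at day 3, 11.13, 10.26 and 11.28 at day 7, and 15.17, 15.29 and 14.90 at day 14. The low days and the high days were far apart, and day 7 overlapped day 3. At day 7 it was 28.9-fold lower than at day 0 (log2 difference -4.85, SE 0.26, limma adjusted p = 2.21e-07). MOUSELNCRNA_42076 had 6.96, 7.08 and 6.68 at day 0, 3.36, 4.40 and 2.13 at day 3, 1.87, 2.13 and 1.54 at day 7, and 6.55, 6.71 and 6.01 at day 14. No day 7 array had it well above background, so its fall is at least 7.70-fold (measured means 1.85 at day 7 and 6.90 at day 0, limma adjusted p = 7.01e-06).

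Against day 3, day 7 showed that the return had begun for many members. Of the 185, 119 were higher at day 7 (64.3%), where 15.7% of all tested probes were, and 97 were higher by 2-fold or more, where 3.47% were. The median over members was 1.32, or 2.50-fold, with quartiles of 0.55 and 1.96, against -0.11 for all tested probes. In 121 members all day 7 pools lay above all day 3 pools, against 20.7% of all tested probes. Within slide 2, with 2 pools of day 7 and a single one of day 3, the median was 1.06. With normexp correction the median was 0.48 and 83 were higher.

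A further 6 members were lower at day 7 than at day 3, where 18.6% of all tested probes were. MOUSELNCRNA_81979 had 9.04, 8.92 and 8.75 at day 0, 6.04, 6.22 and 5.51 at day 3, 4.94, 4.36 and 5.07 at day 7, and 7.95, 8.11 and 7.86 at day 14. All day 7 pools lay below all day 3 pools, and the difference was -1.14 (SE 0.21, limma adjusted p = 0.00330). On slide 2, with a single pool of day 3, it was -0.80. For MOUSELNCRNA_42076 the difference was -1.45 (SE 0.45, adjusted p = 0.0313) between signals mostly at background. It was not called with quantile normalization (-0.92, adjusted p = 0.0926), with normexp (-0.14, adjusted p = 0.526), with slide in the fit or without day 3 pool 1 or 2 or day 7 pool 1 or 3 (adjusted p = 0.0796 to 0.0950).

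The 2 largest fitted differences among the calls above day 3 were in RNAs whose pools scattered, and neither was well above background on all day 3 arrays. MOUSELNCRNA_29402 had 10.05, 6.19 and 8.61 at day 0, 4.86, 5.04 and 2.10 at day 3, 10.47, 5.64 and 8.49 at day 7, and 8.44, 9.72 and 5.94 at day 14. Every day 7 pool was above every day 3 pool, and day 7 covered the range of day 0. The difference from day 3 was 4.20 (SE 1.42, limma adjusted p = 0.0433). MOUSELNCRNA_39781 had 8.35, 5.03 and 7.11 at day 0, 2.08, 2.01 and 2.90 at day 3, 7.85, 3.60 and 6.26 at day 7, and 7.25, 7.02 and 4.99 at day 14. Again day 7 and day 3 did not overlap. No day 3 array and 2 of the 3 day 7 arrays were well above background, so the rise is at least 3.83-fold (measured means 5.90 at day 7 and 2.33 at day 3, limma adjusted p = 0.0289). These 2 calls depended on single pools. Leaving out day 7 pool 1, the highest, gave an adjusted p of 0.155 for MOUSELNCRNA_29402 and of 0.108 for MOUSELNCRNA_39781. Both were also lost without day 7 pool 3 (adjusted p = 0.104 and 0.0800), without day 3 pool 1 (0.0743 and 0.0815), without day 3 pool 2 (0.0609 and 0.0750), with slide as a fixed block (0.148 and 0.261) and with slide as a random block (0.0561 and 0.0859). With normexp correction the difference was 2.29 (adjusted p = 0.0669) for MOUSELNCRNA_29402 and 1.18 (adjusted p = 0.0998) for MOUSELNCRNA_39781. MOUSELNCRNA_29402 alone was further lost without day 3 pool 3 (adjusted p = 0.106) and without day 14 pool 1 (adjusted p = 0.0573).

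The largest called rise above day 3 among members that each of the 6 arrays had well above background was that of MOUSELNCRNA_77029, which was picked after its values were seen. It had 10.27, 10.50 and 10.35 at day 0, 5.66, 5.45 and 5.48 at day 3, 9.06, 8.84 and 8.57 at day 7, and 9.82, 9.63 and 9.76 at day 14. The days did not overlap. Day 7 was 9.81-fold above day 3 (log2 difference 3.29, SE 0.13, limma adjusted p = 9.24e-07).

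Most of the members rose between day 7 and day 14. Of the 185, 138 were higher at day 14 (74.6%), where 5.61% of all tested probes were, and 132 were higher by 2-fold or more, where 2.03% were. By the same adjusted threshold none was lower, where 4.35% of all tested probes were, and none was lower at an unadjusted p below 0.05. The median over members was 1.66, or 3.15-fold, with quartiles of 1.09 and 2.37, against -0.05 for all tested probes. In 155 members all day 14 pools lay above all day 7 pools, against 16.8% of all tested probes. All day 14 pools and a single pool of day 7 lay on slide 3, and within that slide the median was 1.38. With normexp correction the median was 0.87 and 113 were higher.

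The 2 largest fitted differences among the calls were those of MOUSELNCRNA_26857 and MOUSELNCRNA_42076, both with only a bound at day 7. MOUSELNCRNA_26857 had 7.23, 7.13 and 7.18 at day 0, 3.43, 4.36 and 3.11 at day 3, 4.15, 2.24 and 3.34 at day 7, and 8.0001, 8.06 and 7.59 at day 14. Day 3 and day 7 overlapped, and day 14 lay above all other days, day 0 included. No day 7 array had it well above background, which makes the rise at least 15.2-fold (measured means 7.89 at day 14 and 3.24 at day 7, limma adjusted p = 9.84e-05). For MOUSELNCRNA_42076 the rise was at least 5.52-fold (means 6.42 at day 14 and 1.85 at day 7, limma adjusted p = 0.000143). The largest called rise among members that each of the 6 arrays had well above background was that of MOUSELNCRNA_83343, 18.7-fold (log2 difference 4.23, SE 0.26, limma adjusted p = 9.91e-06).

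**Figure D2:**
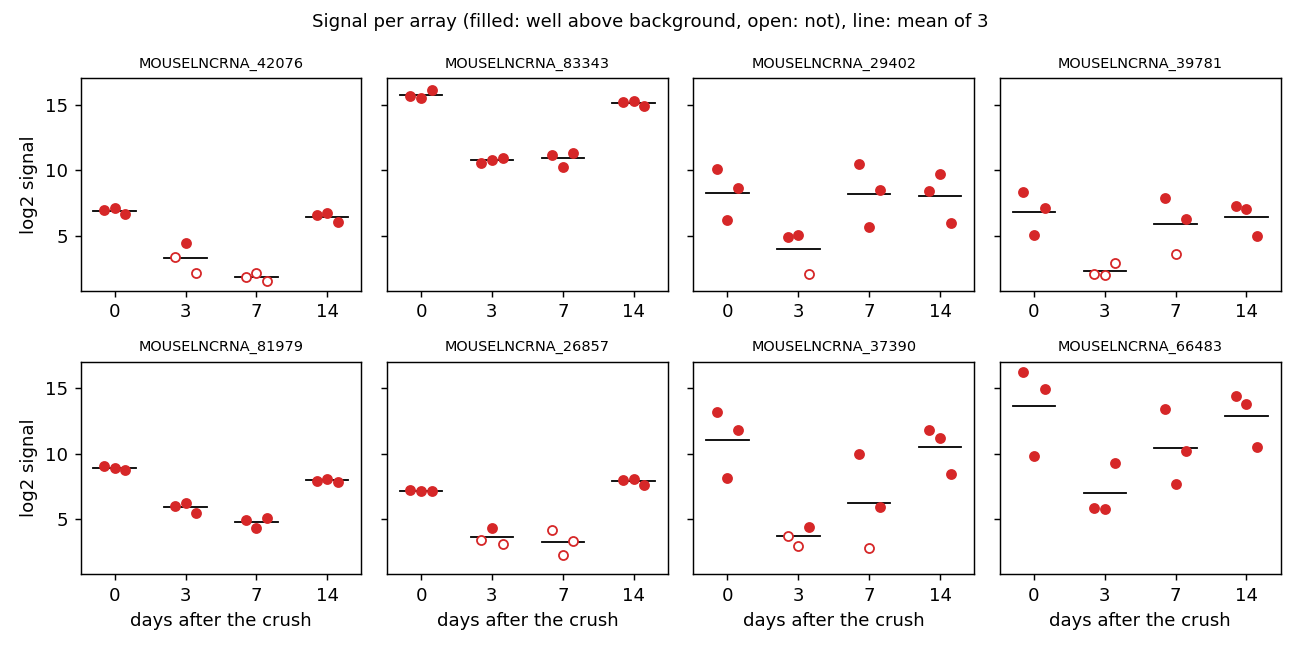
Log2 signal on each array (points, pools 1 to 3 from left to right within a day) against days after the crush for the 8 RNAs with the deepest loss or the largest fitted changes among the calls, with the mean of the 3 pools as a line. Filled points were well above background and open points were not. MOUSELNCRNA_83343 keeps its pools at 10.26 to 11.28 on day 7, while MOUSELNCRNA_66483 spreads over 7.69 to 13.39.

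The calls at day 7 sort the members into 5 courses, formed after the values were seen. The most frequent was a gradual return: 105 members (56.8%) were lower than day 0 and higher than day 3, where 3.42% of all tested probes were both. Their median was -2.13 against day 0 and 1.46 against day 3, and they had regained a median of 40.8% of the log2 loss. Such shares, here and below, come from the day means without a bound. In 28 of the 105, no day 3 array was well above background, so their loss has only a lower bound. Of the 105, 87 were called higher again at day 14 than at day 7.

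In 55 members (29.7%) day 7 was lower than day 0 and not called higher than day 3, where 20.6% of all tested probes were both. For 49 of them day 7 was not called different from day 3, with a median of 0.23, and 44 of the 49 were higher at day 14 than at day 7. The missed call does not show that no return had begun. At day 7 these 49 had regained from -34.9% to 50.5% of the log2 loss. At day 0 this set had a median of 7.18, below the 8.71 of the gradual set, and in 22 of its 49 members no day 7 array was well above background, against 5 of 105. Its part in the day 7 call was not tested. The other 6 were the members lower than at day 3. They had a median of -4.10 against day 0 at day 7, and all 6 were higher at day 14 than at day 7, with a median of 3.37. In all, 137 members were lower at day 7 than at day 0 and higher at day 14 than at day 7 (74.1%), where 4.13% of all tested probes were both.

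An early return, not called different from day 0 but higher than day 3, was seen in 14 members. They had regained a median of 72.0% of the log2 loss. A missed call does not show that the level was that of day 0: their median was -0.96. MOUSELNCRNA_12609, singled out after its values were seen as the only one of the 14 that was also higher at day 14 than at day 7, had 9.88, 9.99 and 9.90 at day 0, 6.64, 6.34 and 5.96 at day 3, 9.17, 9.38 and 10.13 at day 7, and 10.66, 10.80 and 10.74 at day 14. Its pools had an SD of 0.06 at day 0, 0.34 at day 3, 0.50 at day 7 and 0.07 at day 14, day 7 overlapped day 0, and day 14 lay above day 0. Day 7 was 9.51-fold above day 3 (log2 difference 3.25, SE 0.23, limma adjusted p = 1.93e-05) and day 14 was 1.17 above day 7 (limma adjusted p = 0.00933). The remaining 11 members were called against neither day, and 10 of them had widely spread pools. For this course too, the share of all tested probes was not counted.

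**Figure D3:**
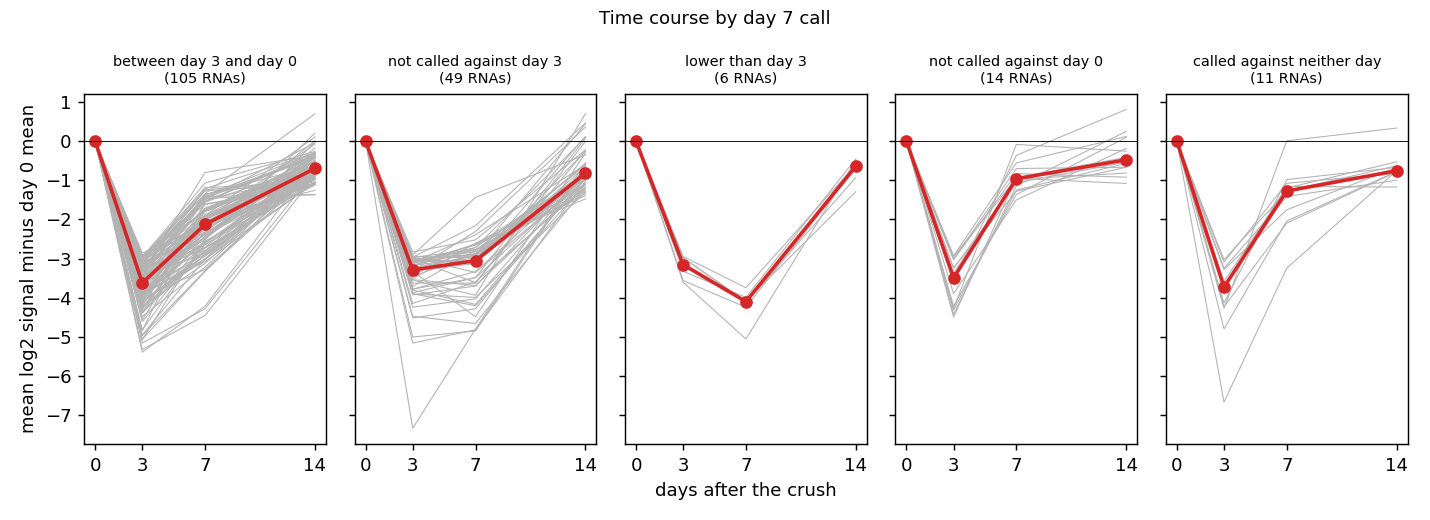
Mean log2 signal of each member minus its day 0 mean (grey lines) against days after the crush, in 5 panels by the calls at day 7, with the median of each panel in red. The medians at day 7 are -2.13 for the gradual course (105 RNAs), -3.05 for members not called against day 3 (49), -4.10 for those lower than day 3 (6), -0.96 for those not called against day 0 (14) and -1.27 for those called against neither (11).

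The same deep loss was seen in 529 RNAs that were still more than 2-fold below day 0 at day 14, counted in the same way. They serve as the nearest comparison, and their day 14 level differs by the rule. At day 3 the medians were close, -3.53 for the members and -3.75 for the others. At day 7, 86.5% of the members and 94.7% of the others were lower than at day 0. The medians of day 7 minus day 0 were -2.39 for the members and -3.67 for the others. Being low at day 7 was thus not particular to the members. At day 7 the members were higher than at day 3 in 64.3% of cases, against 25.7% of the others, and lower in 3.24%, against 16.4%. The medians of day 7 minus day 3 were 1.32 for the members and 0.10 for the others, and the medians of the log2 loss regained at day 7 were 34.2% for the members and 2.34% for the others. Between day 7 and day 14 a rise was called in 74.6% of the members and 54.1% of the others, with medians of 1.66 for the members and 1.14 for the others. No test was made of these shares, since both sets were chosen on these arrays.

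**Figure D4:**
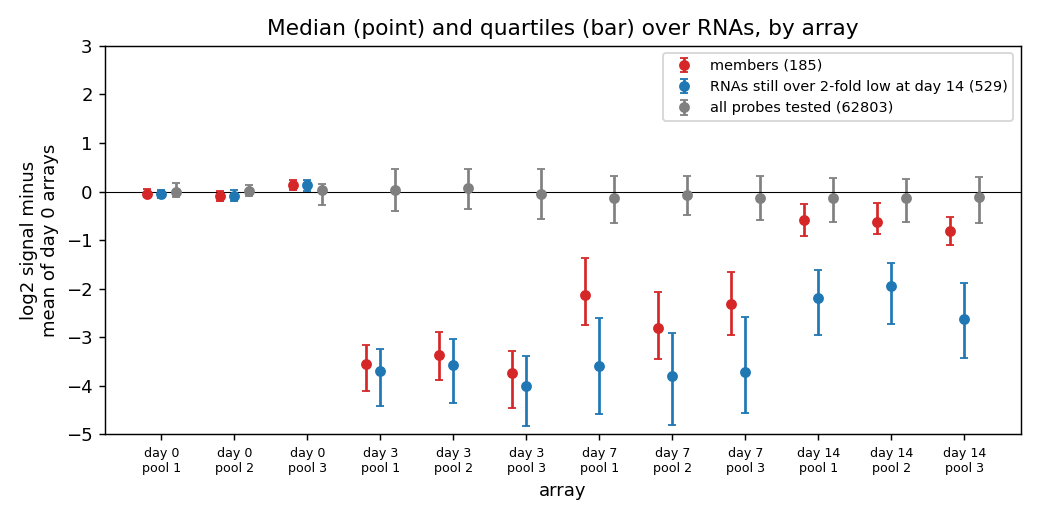
Median (points) and quartiles (bars) of the log2 signal minus the day 0 mean on each array, for the 185 members, the 529 RNAs still over 2-fold low at day 14 and all 62803 probes tested. The day 7 pools give members' medians of -2.12, -2.82 and -2.32, against -3.599, -3.79 and -3.71 for the RNAs that stayed low.

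The members' pools did not spread alike. The median SD over members was 0.19 at day 0, 0.38 at day 3, 0.35 at day 7 and 0.18 at day 14. Day 7 pool 2 was the lowest of its day in 140 of the 185 members, against 31.1% of all tested probes. Day 7 pool 1, on another slide than the other two, was lowest in 14, against 40.2% of all tested probes.

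A set of 16 members, picked after their values were seen for an SD above 1 over the 3 day 0 pools, varied together. They make 8.65% of the members, while 601 of the 60415 tested probes that stood well above background throughout day 0 had such an SD (0.995%). In all 16, day 0 pool 1 was highest and day 0 pool 2 lowest. At day 7, 15 of 16 ran in the same order, pool 1 above pool 3 above pool 2, and at day 14, 15 of 16 were lowest in pool 3. The other 169 members leaned the same way. Day 0 pool 2 was lowest in 50.9% of them, against 25.4% of all tested probes. Day 7 pool 2 was lowest in 74.0% (31.1% of all tested) and day 14 pool 3 in 55.0% (31.6%). The full day 0 order was seen in 26 of the 169 and in 83 of the 601 probes. Over the 9 arrays of days 0, 7 and 14, the deviations of the 16 from their day means were correlated. The median pairwise correlation was 0.96 (0.50 to 0.999), against 0.38 among the other 169 members. These points share the arrays and their scaling. The 9 arrays include the 3 of day 0 that picked the 16 for their spread. The height of this correlation, and its gap to the other members, is thus partly set by that choice. Among the 601 variable probes, 66 followed that order on all these days, the 14 members that did so included.

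The medians of these 16 on the 12 arrays were 10.11, 6.10 and 8.499 at day 0, 4.26, 4.93 and 3.79 at day 3, 9.83, 4.66 and 7.27 at day 7, and 8.29, 9.11 and 6.28 at day 14. Pools of one day thus differed by several log2 units, except at day 3, where all were low. The median SD of the 16 was 2.41 at day 0, 0.49 at day 3, 2.45 at day 7 and 1.76 at day 14. What set the pools apart was not tested. The 2 RNAs with the deepest loss and both RNAs with the largest fitted and called difference of day 7 from day 3 belong to this set.

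Some of the 16 were called. At day 7, 3 of the 16 were lower than at day 0 (MOUSELNCRNA_37390, MOUSELNCRNA_39392 and MOUSELNCRNA_78031), where 24% of all tested probes were. Higher than at day 3 were 4 of the 16 (MOUSELNCRNA_29402, MOUSELNCRNA_39392, MOUSELNCRNA_39781 and MOUSELNCRNA_85713), where 15.7% of all tested probes were. At day 14 none passed as higher than at day 7, where 5.61% of all tested probes did, though 2 of the 16 did so at an unadjusted p below 0.05. For MOUSELNCRNA_37390 the fall from day 0 at day 7 (-4.80, SE 1.72, limma adjusted p = 0.0427) was not called without day 0 pool 1 (-3.72, adjusted p = 0.156), nor without day 0 pool 3, day 3 pool 1 or 2, day 7 pool 2 or 3, or day 14 pool 1 or 2 (adjusted p = 0.0513 to 0.146). Without the 16, the counts were 157 of 169 members lower at day 7 than at day 0, 115 higher at day 7 than at day 3, and 138 higher at day 14 than at day 7. Their place among the members also depended on single pools. The rule kept 2 of the 16 without day 0 pool 2, 5 without day 14 pool 1, 9 without day 0 pool 1 and 13 without day 0 pool 3. Of the other 169 it kept 155 without day 0 pool 2, 162 without day 14 pool 1, 158 without day 0 pool 1 and 143 without day 0 pool 3.

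**Figure D5:**
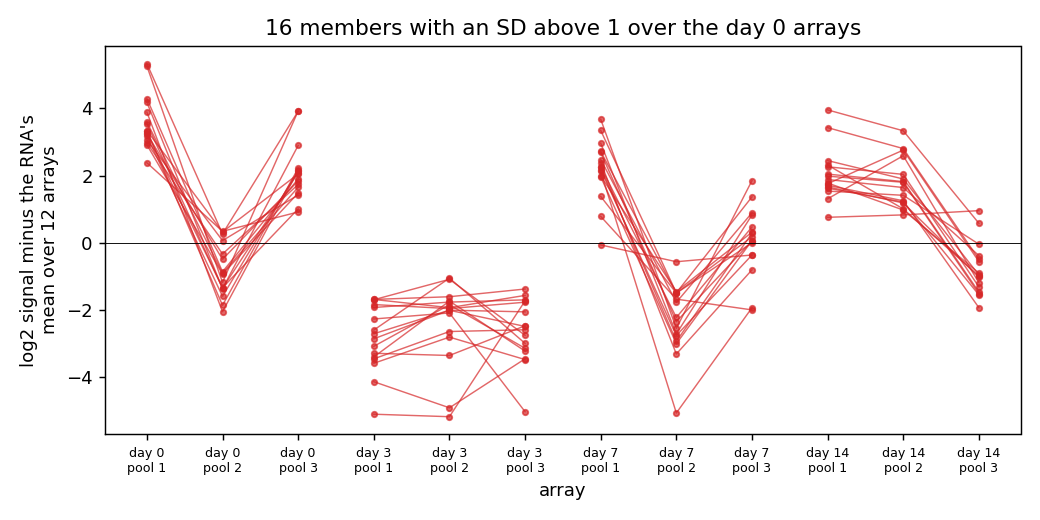
Log2 signal of the 16 members with an SD above 1 over the day 0 pools, minus each RNA's mean over 12 arrays, by array, with the 3 pools of a day joined by lines. The lines run in parallel on days 0, 7 and 14, with day 0 pool 2, day 7 pool 2 and day 14 pool 3 low, and stay below 0 on all day 3 arrays.

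Another 22 of the remaining 169 members had an SD above 1 over the day 3 pools, and day 3 pool 3 was the lowest in 20 of these. How many of all tested probes spread so was not counted. Over all 169, day 3 pool 3 was lowest in 70 (41.4%), close to the 42.4% of all tested probes. It was highest in 69, where it was so in 29322 of the 62803 tested probes. Day 3 pool 3 lay on slide 2 and the other day 3 pools on slide 1, and pool and slide cannot be told apart there.

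Some members read the same or a neighbouring stretch of RNA. In 7 cases 2 probes were merged, with 52 to 59 shared bases. Both probes of a pair had met the rule, so their likeness at days 3 and 14 is partly set by it and is no check of the readout. The brightest such pair is shown as an example, chosen after its values were seen, with the shared run in capitals.
MOUSELNCRNA_47779: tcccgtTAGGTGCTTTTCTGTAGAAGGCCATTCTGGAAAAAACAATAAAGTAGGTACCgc
MOUSELNCRNA_21702: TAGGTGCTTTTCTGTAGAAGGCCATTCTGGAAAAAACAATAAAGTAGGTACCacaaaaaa
MOUSELNCRNA_47779 had 14.70, 14.59 and 14.78 at day 0, 10.72, 10.79 and 10.93 at day 3, 12.10, 11.48 and 12.02 at day 7, and 14.27, 14.27 and 14.11 at day 14. MOUSELNCRNA_21702 had 14.25, 14.20 and 14.40 at day 0, 10.28, 10.39 and 10.49 at day 3, 11.65, 11.09 and 11.61 at day 7, and 13.84, 13.90 and 13.76 at day 14. The 2 probes gave the same course, with differences from day 0 that lay within 0.021 of each other on days 3, 7 and 14. MOUSELNCRNA_47779 was lower at day 7 than at day 0 (-2.82, SE 0.15, limma adjusted p = 2.59e-07) and higher at day 14 than at day 7 (2.35, limma adjusted p = 1.42e-05). Over the 7 pairs the largest such gap had a median of 0.24 and a maximum of 0.91.

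Probes that overlap did not all share the course. Of the 192 member probes, 6 shared 25 or more bases with probes outside the rule. MOUSELNCRNA_60260 shared 53 bases with a probe at -2.98 in the deposited values at day 3 and -0.86 at day 14, just short of the limit. MOUSELNCRNA_74776 shared 25 bases with a pair of probes just short of it too, at -2.92 and -2.91 at day 3 and -0.43 and -0.56 at day 14. MOUSELNCRNA_87169 shared 28 to 41 bases with 5 probes at -3.16 to -3.04 at day 3 and -1.46 to -1.06 at day 14, below the limit of the return. The other 3 had partners with another course. MOUSELNCRNA_1911 shared 33 bases with a probe at -0.20 at day 3 and 1.85 at day 14. MOUSELNCRNA_58966 shared 37 bases with a probe at -0.61 and -0.59. MOUSELNCRNA_2612 overlapped 27 other probes by 25 to 45 bases, with day 3 values from -2.27 to 0.80. All of these were chosen for their overlap after their values were seen.

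One member, MOUSELNCRNA_13603, had a probe of the array on the opposite strand, MOUSELNCRNA_3143, where 2.26% of all probes had one. All 60 bases pair, in capitals.
MOUSELNCRNA_13603: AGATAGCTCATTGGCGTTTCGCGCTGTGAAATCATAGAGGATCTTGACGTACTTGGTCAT
MOUSELNCRNA_3143: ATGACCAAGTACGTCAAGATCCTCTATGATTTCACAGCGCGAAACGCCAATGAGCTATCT
MOUSELNCRNA_13603 had 7.55, 7.48 and 7.99 at day 0, 3.21, 1.82 and 3.07 at day 3, 4.93, 4.03 and 4.13 at day 7, and 7.08, 6.77 and 6.81 at day 14. MOUSELNCRNA_3143 had 5.18, 5.06 and 5.34 at day 0, 2.08, 1.9955 and 3.17 at day 3, 2.55, 2.96 and 2.78 at day 7, and 3.87, 3.88 and 3.69 at day 14, and no array after day 0 had it well above background. Both strands were thus low at day 3. At day 14 the member lay 0.79 below its day 0 mean, all 3 arrays well above background. The member was lower at day 7 than at day 0 (-3.31, SE 0.35, limma adjusted p = 2.67e-05) and higher at day 14 than at day 7 (2.52, limma adjusted p = 0.00130). Its rise from day 3 at day 7 (1.66, limma adjusted p = 0.00606) was not called with normexp (0.34, adjusted p = 0.179) or with slide as a fixed block (1.04, adjusted p = 0.0826).

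One member could be placed in the genome. With RefSeq's 32851 promoter windows (250 bases before to 50 after a gene's start, build GRCm38.p6), 1 of the 192 member probes shared 40 or more bases, against 1.21% of all probes, and none did so with a RefSeq miRNA hairpin. All 60 bases of MOUSELNCRNA_15349 lie at chr1:74304464-74304523, on the plus strand.
MOUSELNCRNA_15349: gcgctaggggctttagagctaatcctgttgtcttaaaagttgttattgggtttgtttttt
The window is that of Tmbim1, which encodes a membrane protein with a BAX inhibitor motif and is read from the minus strand. The probe thus lies 128 to 187 bases upstream of the annotated start and on the other strand, so a transcript with the sequence of the probe is not that of Tmbim1. MOUSELNCRNA_15349 had 10.34, 10.19 and 10.74 at day 0, 6.57, 6.44 and 6.59 at day 3, 8.46, 7.85 and 7.98 at day 7, and 9.57, 9.50 and 9.33 at day 14. The 4 days did not overlap, in the order day 3, day 7, day 14 and day 0 from low to high. Day 7 was 5.03-fold below day 0 (-2.33, SE 0.18, limma adjusted p = 2.30e-06) and 2.95-fold above day 3 (1.56, limma adjusted p = 0.000253), and day 14 was 2.59-fold above day 7 (1.37, limma adjusted p = 0.000839). The last of these was 1.01 on slide 3, with a single pool of day 7.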

How the data were processed

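The scanner files hold spot intensity values that the authors made with Agilent Feature Extraction (10.7 per the submitters' processing notes, 10.7.1.1 per the file headers), background-subtracted and not normalized between arrays. The deposited series table holds log2 values with a common median of 6.42 per array, which correlated at 0.993 to 1.000 with the log2 scanner signal, and how they were normalized is not given in the sources used here. The rule was applied to the deposited log2 values. All other values are log2 processed signals without control spots, averaged over 2 spots for 85274 probes (1 spot for 5478), each array scaled to a 75th percentile of 9.34.

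Limma 3.58.1 in R 4.3.3 was given 12 arrays and a mean for each day (8 residual degrees of freedom), with Benjamini-Hochberg adjustment over 62803 probes. Precision is set by the few arrays: the SE over members had a median of 0.26. The fit and the overlap finder were tested on simulated data. Python 3.11.15, pandas 2.3.3 and networkx 3.6.1 did the rest. Members and lists were chosen with earlier results of these data known. Named are, per comparison with day 7, the 2 largest called rises and falls by fitted difference (some at background), and the 2 deepest losses at day 3. The listed marker genes and pathways need gene names and were not run. Alternatives were other scalings, background correction, filters, slide or replicate blocks, single slides, stricter thresholds, other membership and leaving out arrays.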

Additional observations from a re-analysis of the deposited data

How the results depend on the processing

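Of 124 alternative values, 116 stayed close to the reported ones, counts within 1.5 times and medians within the spread between pools. The 124 include 13 numbers of members, which have no direction. None of the other values reversed, but their direction is partly set by the rule. Restricted to probes well above background on all 12 arrays, which left 80 of the 185 members, 71 were lower at day 7 than at day 0, 57 were higher at day 7 than at day 3 and 69 were higher at day 14 than at day 7. Within slide 2, with 1 residual degree of freedom, 72 were higher at day 7 than at day 3, and within slide 3, with 2, 90 were higher at day 14 than at day 7, each with a single array on one side that is assumed to vary like the others, so these counts test nothing. Normexp background correction gave medians of -1.28 for day 7 minus day 0, 0.48 for day 7 minus day 3 and 0.87 for day 14 minus day 7; the cause was not tested. Leaving out single arrays gave 152 to 157 members lower at day 7 than at day 0, 100 to 129 higher than at day 3 and 117 to 131 higher at day 14 than at day 7, with medians of -2.54 to -2.23, 1.11 to 1.43 and 1.54 to 1.80, and 172 to 214 members. The rule on scanner values gave 144 members, 136 of them shared. Under quantile normalization the median of all probes for day 7 minus day 3 was 0.02, against -0.11. Deviations of same-numbered pools from their day means correlated at -0.38 to 0.37, over probes well above background on all 12 arrays. With a replicate block the counts were 158, 121 and 132. Leaving out the 16 variable members was added after seeing the data. Members dim at day 3 or day 7 have only bounded differences.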
